A study of Mus musculus with 5 samples.

Results

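The cytosolic ribosomal protein genes were taken as the rows of the gene table whose symbol begins with Rpl or Rps followed by a number, with Rplp0, Rplp1, Rplp2 and Rpsa, leaving out the S6 kinase genes and the rows named as pseudogenes. This rule found 84 of the 24419 rows, 51 of the large subunit and 33 of the small subunit. Both groups were macrophages grown from the bone marrow of C57BL/6 mice with 50 ng/ml M-CSF for 5 days, and LPS at 100 ng/ml was given to both, so no unstimulated sample enters the comparison. 2 samples received PBS and 3 received 100 ng/ml recombinant Sema3G, a secreted semaphorin used here as an Fc-tagged protein, for 18 h. The comparison asks which genes of LPS-stimulated macrophages differ when Sema3G is added. No control protein carrying the Fc tag alone was among these samples, so an effect of the tag cannot be told apart from one of Sema3G. The sources do not say whether the samples of a group came from separate cultures or animals, and p values therefore measure the spread between these samples, which may be technical.

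Most ribosomal proteins are present as a single copy in the ribosome, so the large and small subunits are assembled from like amounts of their proteins together with ribosomal RNA. The mRNAs of these proteins are among the most abundant of growing cells. They begin with a C followed by a run of pyrimidines, the 5′ terminal oligopyrimidine (TOP) motif, through which mTOR and the RNA-binding protein Larp1 govern their translation and stability. The genes are also known for the large number of processed pseudogenes that they have left in mammalian genomes, many of which still carry nearly the same sequence.

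The libraries counted unique molecular identifiers (UMIs) at the 3′ ends of mRNAs, and values are given as CPM, in which each count is scaled by the UMI total of its library. A 3′ tag is counted once per molecule whatever the length of the mRNA, so CPM can be compared between genes except where their sequence is shared with another gene. Library totals lay between 1798469 and 2215855 UMIs, of which 65.9 to 77.6% fell on listed genes, and the ribosomal protein genes held 19956 to 30634 UMIs per library. The 7 macrophage markers summed to 9761 and 12569 CPM with PBS and to between 8857 and 9516 CPM with Sema3G. Markers of neutrophils, lymphoid cells, dendritic cells and mast cells or basophils each summed to at most 2.78 CPM in any library, with Elane, Cxcr2, Cd3e, Cd79a, Ms4a1, Ncr1, Flt3, Xcr1, Siglech, Ms4a2 and Mcpt8 listed at 0 in all 5. The 4 stromal markers summed to 6.96 to 18.7 CPM with PBS and 9.03 to 14.3 CPM with Sema3G. Rn45s, the ribosomal RNA precursor, took 1.01 and 3.19% of the UMIs with PBS and 6.31, 7.40 and 7.88% with Sema3G (95% Wilson intervals within 0.036 percentage points of each value). It moved with the groups together with the share of UMIs on listed genes, and the part of either in the results was not tested. Sema3G replicate 1 lay between the PBS libraries and the other Sema3G libraries for many of the genes described here, and the summed level, the counts of calls and the adjusted p values of several leading genes are also given without it.

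Levels spanned a wide range. Rplp1, which encodes an acidic protein of the stalk that recruits elongation factors, was the highest, and 9 of the 84 genes made up 50% of the summed CPM. The mean over the 5 libraries was at least 100 CPM for 26 genes, of which 15 encode small subunit proteins. A further 26 lay from 10 to 100 CPM and 20 from 1 to 10 CPM. Of the other 12, 9 had a mean under 1 CPM and 3 were listed at 0 in all libraries. These 3 were Rpl10a, whose product is part of the L1 stalk, Rpl26, whose product also binds p53 mRNA, and Rpl10l, a retrogene known from the testis. Since a ribosome needs each of its core proteins, a row at 0 for Rpl10a or Rpl26 says only that the table lists 0 there. The plot of levels by library shows this order for 82 of the genes.

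**Figure D1:**
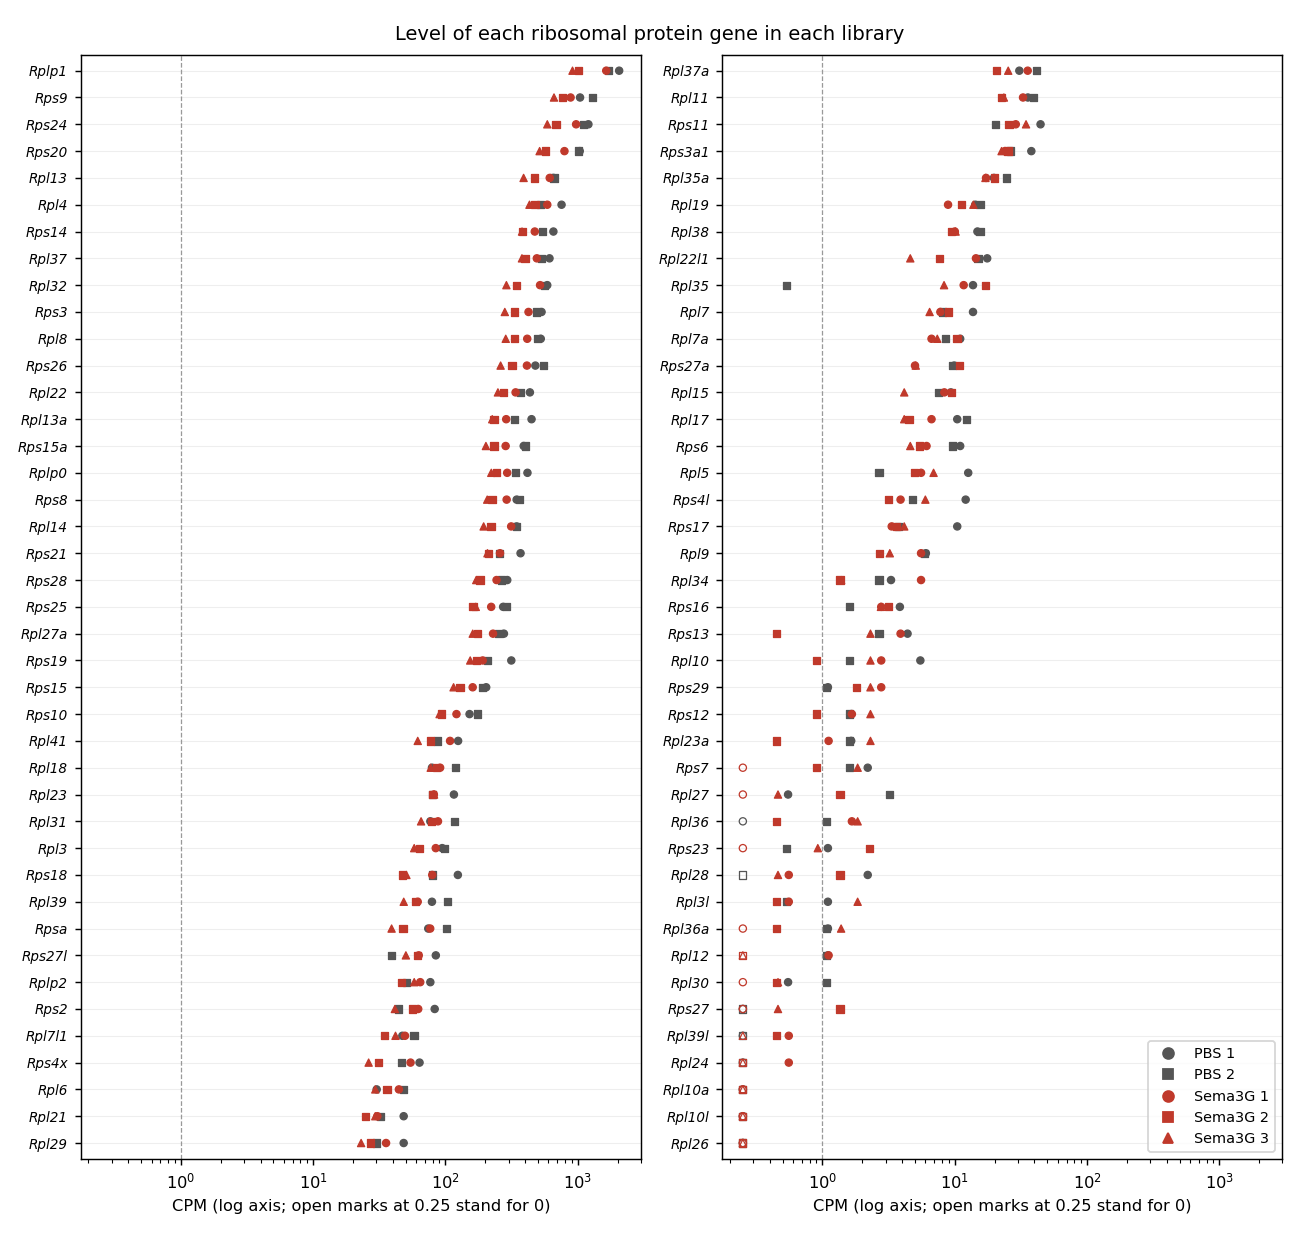
CPM (log axis) of 82 of the 84 ribosomal protein genes in each library, ordered by mean, with PBS libraries in grey and Sema3G libraries in red; open marks stand for 0 and the dashed line for 1 CPM. Rplp1 is the highest at 914 to 2058 CPM, and for most genes at the top the red marks lie to the left of the grey ones.

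Many of these genes share sequence with other genes. In the GENCODE M21 annotation of GRCm38, 83 of the 84 genes had a transcript with a coding end, and 78 of these shared at least 1 exact stretch of 75 bases, the read length, around the stop codon (200 coding bases and up to 100 after the stop) with another annotated gene. The share of such windows found elsewhere had a median of 36.1% among the 26 genes of at least 100 CPM, 54.8% among those from 10 to 100 CPM, 72.4% from 1 to 10 CPM and 72% under 1 CPM. Across the 83 genes the Spearman correlation of level with this share was -0.54, given as a description since the genes share libraries. With the last 300 bases of the transcript in place of the stop codon window, both chosen after seeing the data, 54 of the 83 shared a stretch, the correlation was -0.36, and the medians were 7.3, 30.1, 78.8 and 26.2% from the highest to the lowest of these ranges, so that the order by level did not hold at the low end. Around the stop codon, 721 other genes, summed over the 83 genes, matched at 95% identity or more. Of these, 682 were annotated as pseudogenes and 27 had a row in the table. Both strands were searched, and genes overlapping the locus of a ribosomal protein gene were not left out. A shared window therefore need not be another place for a read to map. The sources used here do not give how reads that map to several places were treated, so the level of a gene with much shared sequence is uncertain, and a low level of such a gene cannot be read as low mRNA. Rpl3l and Rpl39l shared no window around the stop codon with another gene.

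**Figure D2:**
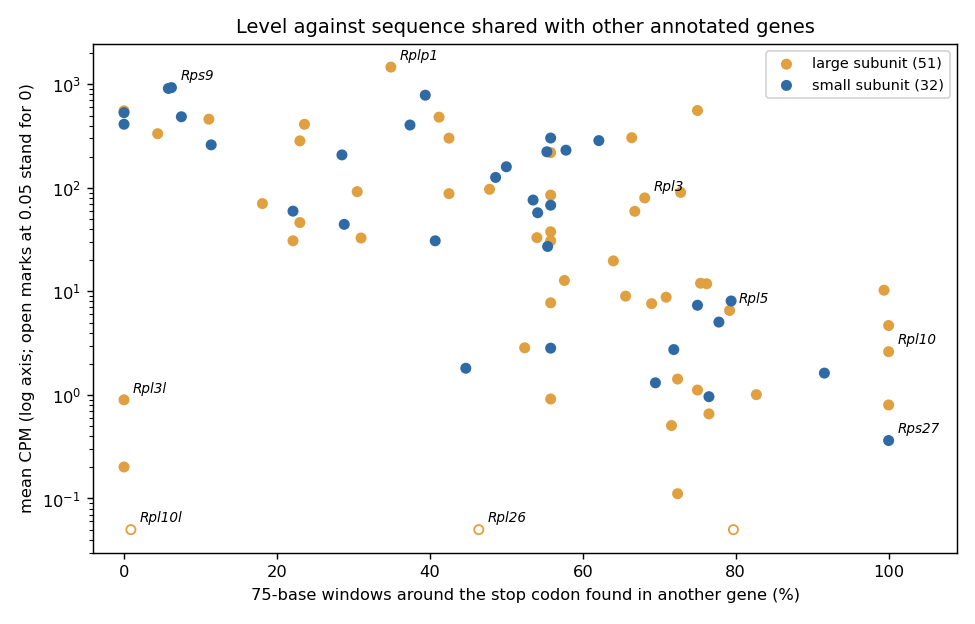
Mean CPM over the 5 libraries (log axis) against the percentage of 75-base windows around the stop codon that occur exactly in another annotated gene, for 83 ribosomal protein genes; open marks stand for a level of 0. Genes with all windows shared, such as Rps27 and Rpl10, lie under 10 CPM, and Rpl35 (99.4% of windows) at 10.3 CPM, while Rps9, with 6.2%, lies at 930 CPM.

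Some of the coding ends show how little can separate a gene from its copy there. In the last 300 bases of the transcript, 100% of the 75-base windows of Rps27 occurred exactly in another gene, but 0% of those of Rpl37 and Rpl14. The last 75 coding bases are given from GENCODE M21, with a base that differs between the pair in capitals. Rps27 (chr3:90212522-90213651, minus strand), whose product is a zinc finger protein of the small subunit, had 0, 0, 0, 3 and 1 UMIs over PBS replicates 1 and 2 and Sema3G replicates 1, 2 and 3, and its intronless copy Rps27rt (chr9:114982366-114982739, minus strand) was listed at 0.
Rps27: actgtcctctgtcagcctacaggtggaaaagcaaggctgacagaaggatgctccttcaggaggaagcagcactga
Rps27rt: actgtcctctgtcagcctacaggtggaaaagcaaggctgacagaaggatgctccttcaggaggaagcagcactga
These ends are identical over the full length of a read. Rpl37 (chr15:5116645-5119140, plus strand) and the processed pseudogene Rpl37rt (chr5:115102923-115110268, minus strand) differ by 1 base here.
Rpl37: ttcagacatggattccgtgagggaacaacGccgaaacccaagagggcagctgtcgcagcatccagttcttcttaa
Rpl37rt: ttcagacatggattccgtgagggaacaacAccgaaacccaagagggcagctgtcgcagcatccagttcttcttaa
Rpl37 had 612 and 530 CPM with PBS and 491, 399 and 379 CPM with Sema3G, and Rpl37rt had 615 and 441 CPM with PBS and 450, 360 and 351 CPM with Sema3G. The pseudogene row was thus listed at nearly the level of the gene in each of the 5 libraries. Rpl14 (chr9:120571444-120574654, plus strand) and the processed pseudogene Rpl14-ps1 (chr7:45324965-45325617, plus strand) have the same coding end.
Rpl14: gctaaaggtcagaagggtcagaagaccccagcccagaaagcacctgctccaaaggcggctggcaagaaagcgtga
Rpl14-ps1: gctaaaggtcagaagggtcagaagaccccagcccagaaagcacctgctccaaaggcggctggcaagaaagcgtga
Rpl14 had 346 and 347 CPM with PBS and 314, 221 and 195 CPM with Sema3G. Rpl14-ps1 had 31.9 and 25.2 CPM with PBS and 39.5, 46.9 and 47.5 CPM with Sema3G, so the order of the groups was opposite in gene and pseudogene, without overlap in either. Their log2 fold changes were -0.54 (SE 0.21, adjusted p = 0.159 from limma) and 0.63 (SE 0.23, adjusted p = 0.138 from limma; 0.0324 in edgeR's quasi-likelihood test).

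The summed level of the 84 genes was lower in each Sema3G library than in either PBS library. It was 16831 and 15481 CPM with PBS and 13484, 10228 and 9199 CPM with Sema3G, or 16156 ± 954 CPM (SD, n = 2) against 10970 ± 2237 CPM (SD, n = 3), which is 32.1% lower. Large subunit genes summed to 7793 ± 710 CPM with PBS and 5437 ± 1174 CPM with Sema3G, and small subunit genes to 8363 ± 244 and 5534 ± 1063 CPM, a log2 ratio of -0.52 for the large and -0.60 for the small subunit. As a share of the UMIs on listed genes, the sum was 2.17% (95% Wilson interval 2.15 to 2.19%) and 2.05% (2.03 to 2.07%) with PBS, and 1.89% (1.87 to 1.91%), 1.52% (1.50 to 1.54%) and 1.40% (1.38 to 1.42%) with Sema3G. On that scale the mean was 24.0% lower with Sema3G. The log2 ratio of the summed CPM was -0.56. It was -0.35 with TMM factors, -0.28 with the UMIs of the listed genes without Rn45s as the total, and -0.73 without Sema3G replicate 1. Intervals cover counting error only. CPM are shares of a library and not amounts per cell, and in bulk RNA a smaller share of cells of a type and less of an mRNA in each of them cannot be told apart.

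**Figure D3:**
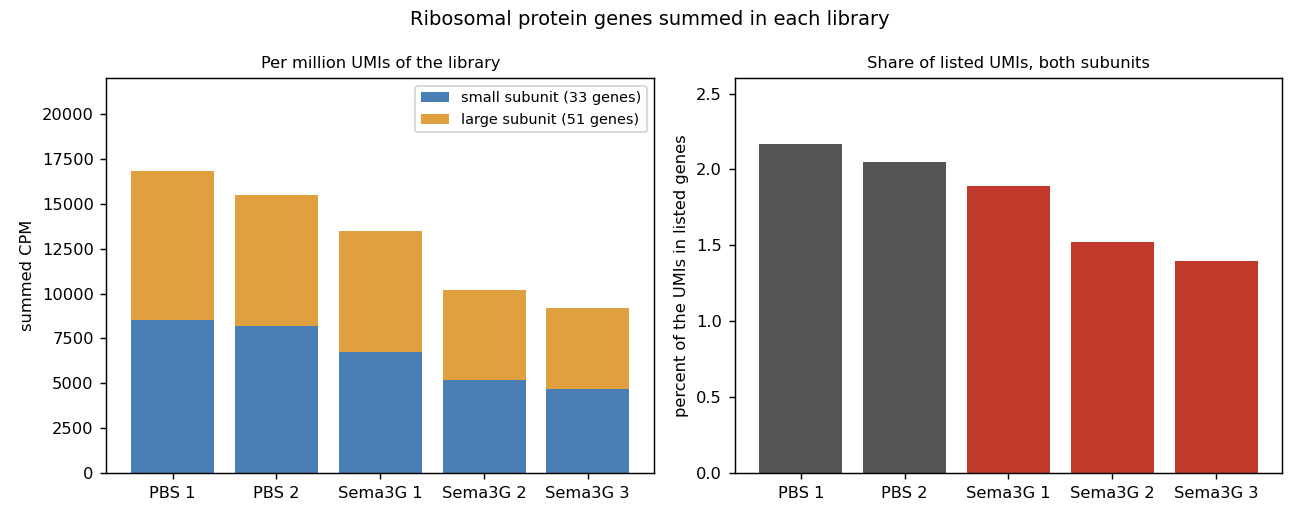
Summed level of the ribosomal protein genes in each library, on the left in CPM stacked by subunit and on the right as a percentage of the UMIs in listed genes, with PBS in grey and Sema3G in red. On both scales the 3 Sema3G libraries lie below both PBS libraries, with Sema3G replicate 1 the nearest to them at 13484 CPM and 1.89%.

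Gene by gene, most log2 fold changes lay below 0 but no single gene passed the test. Of the 84 genes, 72 had a mean of at least 1 CPM and were tested (41 of the large and 31 of the small subunit) with limma on log2(CPM + 1), with p values adjusted over all 10088 genes. None passed an adjusted p of 0.05, against 1.80% of all genes tested in either direction and 0.218% in the lower direction. At an unadjusted p under 0.05, 35 were lower (48.6%, against 14.2% of all genes) and 1 was higher (against 6.83%). The log2 fold change was below 0 for 67 of the 72 (93.1%), against 67.5% of all genes, and its median was -0.51 against -0.22. For 37 of the 72 the highest Sema3G library was below the lower PBS library (51.4%, against 26.5% of all genes), and for 1 the lowest Sema3G library was above the higher PBS library (against 11.9%). Among the 12 genes that were not tested, Rpl30 also had all 3 Sema3G libraries below both PBS libraries, on 5 UMIs in all.

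The scaling sets how far the fold changes lie from 0. Since it multiplies each library by 1 factor, all genes shift nearly alike, and their distance from each other was bound to change little. With TMM factors the median of all genes moved from -0.22 to -0.02, and when the UMIs of the listed genes without Rn45s were the total, to 0.04. The ribosomal protein genes then had medians of -0.31 and -0.24, and their distance from the median of all genes was -0.29 on each of the 3 scales. The log2 fold change was below 0 for 60 of 72 with TMM factors (83.3%, against 52.2% of all genes), 57 of 72 over the listed genes (79.2%, against 46.0%), 54 of 61 in edgeR (88.5%, against 50.8%) and 65 of 81 in DESeq2 (80.2%, against 50.7%). Genes with every Sema3G value under both PBS values numbered 27 of 72 with TMM factors (37.5%, against 14.7% of all genes) and 19 of 72 over the listed genes (26.4%, against 10.5%). On these scales no gene of the group passed the adjusted p of 0.05 in limma (against 0.0297% of all genes lower and 3.45% higher with TMM factors, and 0.0198 and 4.89% over the listed genes), and 14 and 6 were lower at an unadjusted p under 0.05 (against 4.40 and 2.27% of all genes). No gene of the group was called by edgeR's quasi-likelihood test or by DESeq2 on the recovered counts. Of all genes 0.0366% were called lower and 4.63% higher in edgeR, and 0.00782 and 1.80% in DESeq2. In these fits 10 of 61 and 13 of 81 were lower at an unadjusted p under 0.05 (4.19 and 1.34% of all genes). Without Sema3G replicate 1, 29 of 74 genes passed the adjusted p of 0.05 in limma, all lower (39.2%, against 5.49% of all genes), while 2 passed without PBS replicate 2 (Rps18 and Rps19, against 0.327% of all genes lower) and none without Sema3G replicate 2 or 3, where no gene of the whole table was called lower either. Without PBS replicate 1, 1 of 72 passed, Rpl35, in the higher direction (against 0.825% of all genes). With a PBS library left out the PBS group is a single library, which the fit takes to vary as the Sema3G libraries do. Without Sema3G replicate 1 the Sema3G group is replicates 2 and 3, the most alike of all pairs of libraries. With their mean as 1 sample beside Sema3G replicate 1, no gene of the group passed (against 0% of all genes lower and 0.188% higher).

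**Figure D4:**
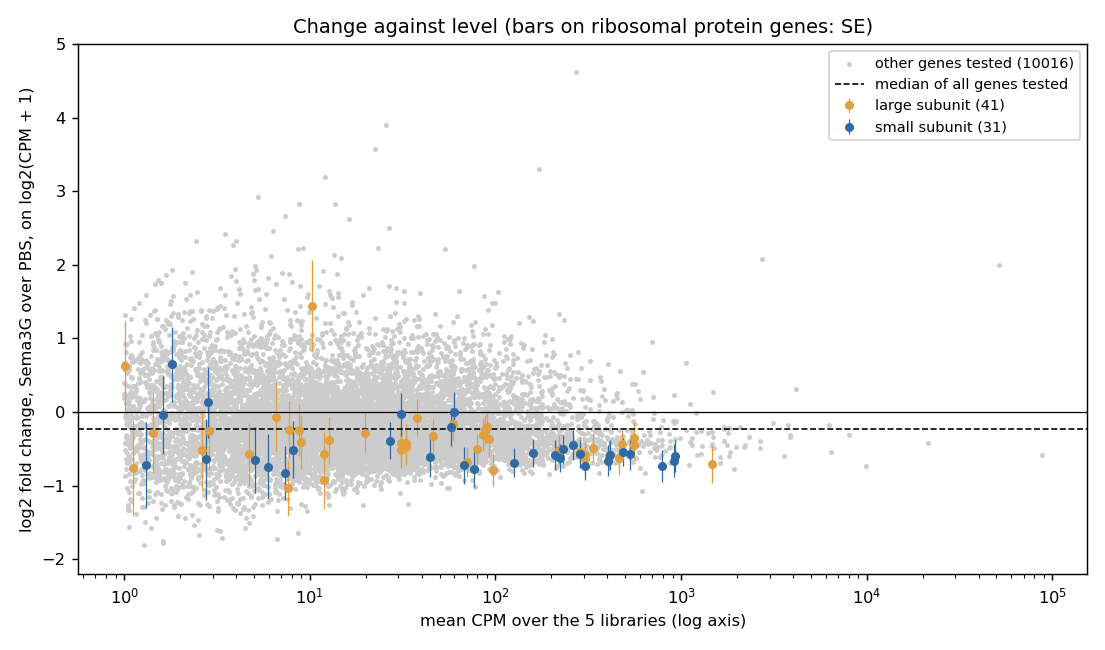
Log2 fold change of Sema3G over PBS on log2(CPM + 1) against the mean CPM (log axis) for the 10088 genes tested, in grey, with the 72 ribosomal protein genes in colour and their SE as bars; the dashed line is the median of all genes, -0.22. The 26 ribosomal protein genes of at least 100 CPM form a narrow band between -0.74 and -0.35, and those at low levels scatter on both sides.

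Among the 26 genes of at least 100 CPM, the fold changes were close to each other. All 26 lay below 0 (against 76.8% of the 1052 genes of at least 100 CPM), with a median of -0.58 and an SD of 0.095, against a median of -0.34 and an SD of 0.44 over those 1052 genes. The groups did not overlap, with Sema3G the lower, for 24 of the 26 (against 44.6%), the exceptions being Rpl4 and Rps21, for which PBS replicate 2 lay below Sema3G replicate 1. Relative to the mean of the PBS libraries, their median level was 1.04 and 0.96 in the PBS libraries and 0.82, 0.64 and 0.58 in Sema3G replicates 1, 2 and 3, where all 1052 genes had medians of 0.90, 0.77 and 0.74 with Sema3G. Sema3G replicate 1 was the highest of the Sema3G libraries for all 26 and Sema3G replicate 3 the lowest for 25.

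**Figure D5:**
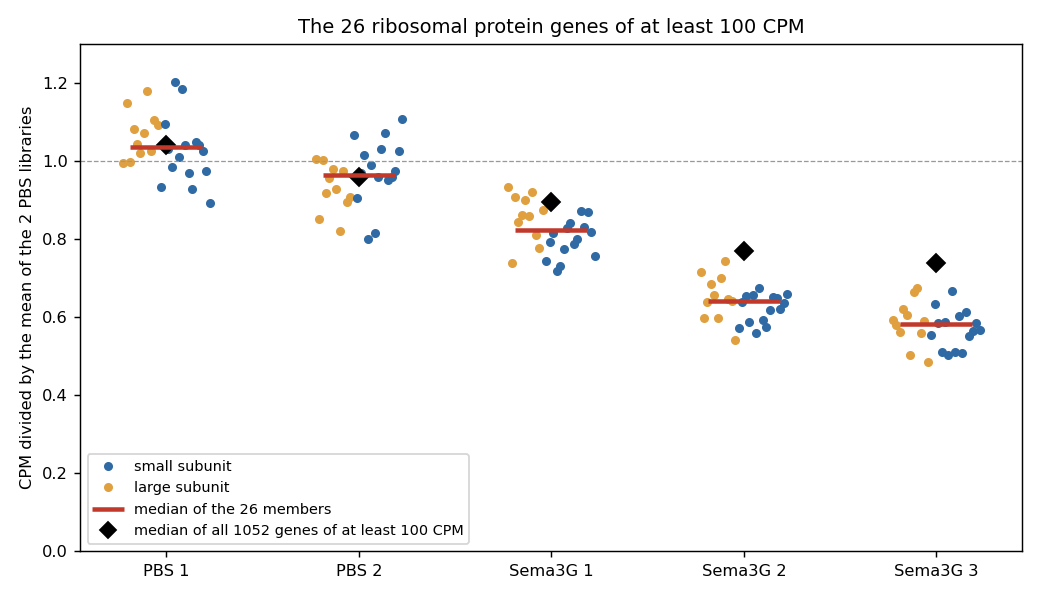
CPM divided by the mean of the PBS libraries for each of the 26 ribosomal protein genes of at least 100 CPM (points), their median (red bar) and the median of all 1052 genes of at least 100 CPM (black diamond), by library. The red bars stand at 0.82, 0.64 and 0.58 in the Sema3G libraries, below the diamonds at 0.90, 0.77 and 0.74.

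The stalk proteins Rplp0, Rplp1 and Rplp2 form 1 complex on the large subunit, and their rows did not have like values. Rplp1 had 2058 and 1707 CPM with PBS and 1643, 1016 and 914 CPM with Sema3G, with Sema3G replicate 1 close under PBS replicate 2. Its log2 fold change was -0.70 (SE 0.26, adjusted p = 0.143 from limma, or 0.0120 without Sema3G replicate 1). Rplp0, the base of the stalk, had 417 and 337 CPM with PBS and 293, 242 and 222 CPM with Sema3G, without overlap (log2 fold change -0.58, SE 0.19, adjusted p = 0.120 from limma). Rplp2 had 76.9 and 50.9 CPM with PBS and 64.5, 46.5 and 58.1 CPM with Sema3G, so that its groups overlapped, and its log2 fold change of -0.16 turned to 0.06 with TMM factors.

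The small subunit held the other genes at the top and the lowest p values. Rps9, an early assembly protein, had 1042 and 1294 CPM with PBS and 884, 771 and 662 CPM with Sema3G, and Rps24 had 1205 and 1110 CPM against 972, 686 and 589 CPM. Rps20, a protein of the head of the subunit, had 1036 and 1013 CPM against 794, 572 and 515 CPM. None of the 3 overlapped between groups, and their log2 fold changes were -0.60, -0.66 and -0.73, with Rps20 at an adjusted p of 0.0884 from limma. The lowest adjusted p was that of Rps15a, named after its values were seen, with 391 and 404 CPM with PBS and 285, 233 and 202 CPM with Sema3G (log2 fold change -0.74, SE 0.19, adjusted p = 0.0580 from limma). Rps10, a beak protein mutated in some families with Diamond-Blackfan anemia, had 152 and 174 CPM against 121, 93.4 and 90.4 CPM (log2 fold change -0.69, SE 0.19, adjusted p = 0.0804 from limma). In Rps15a and Rps20 the PBS libraries lay close together, and the spread among the Sema3G libraries was the larger. Without Sema3G replicate 1 the adjusted p from limma was 0.0113 for Rps15a, 0.0103 for Rps20 and 0.0158 for Rps10. With the replicate number as a block, which was not taken as pairing, it was 0.00991, 0.0206 and 0.0191. In that fit Sema3G replicate 3, whose number no PBS library has, does not enter the contrast of the groups.

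Further small subunit genes had the same order of groups. Rps3, at the entry of the mRNA channel, had 533 and 490 CPM with PBS and 425, 331 and 281 CPM with Sema3G. Rps14 had 655 and 542 CPM against 474, 382 and 379 CPM, and Rps19, the gene most often mutated in Diamond-Blackfan anemia, had 315 and 209 CPM against 191, 172 and 154 CPM. Their log2 fold changes were -0.58, -0.54 and -0.58, and in each the highest Sema3G library lay below the lower PBS library. Rps18 had 124 and 79.8 CPM with PBS and 79.5, 47.4 and 50.7 CPM with Sema3G, so that PBS replicate 2 and Sema3G replicate 1 were nearly equal (log2 fold change -0.78, SE 0.24, adjusted p = 0.105 from limma). Rpsa, also known as the laminin receptor, overlapped, with 74.2 and 102 CPM against 76.7, 47.8 and 39.2 CPM.

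Rps6, the substrate of the S6 kinases, was listed far below its partners in the subunit. It had 11 and 9.64 CPM with PBS (20 and 18 UMIs) and 6.12, 5.42 and 4.61 CPM with Sema3G (11, 12 and 10 UMIs), a log2 fold change of -0.83 (SE 0.36, adjusted p = 0.208 from limma), and 75% of its windows were shared with other genes. Rps27a, which encodes a fusion of ubiquitin with its ribosomal protein, had 9.89 and 9.64 CPM with PBS and 5.00, 10.8 and 5.07 CPM with Sema3G, and the groups overlapped. Rps29 was the only tested gene of the group with all Sema3G libraries above both PBS libraries, at 2, 2, 5, 4 and 5 UMIs over the libraries (log2 fold change 0.65, SE 0.51, adjusted p = 0.462 from limma).

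Among the large subunit genes Rpl13 was the highest after Rplp1, with 656 and 662 CPM with PBS and 614, 472 and 390 CPM with Sema3G (log2 fold change -0.45, SE 0.21, adjusted p = 0.232 from limma). Rpl13a, whose product leaves the ribosome in interferon-treated monocytes to silence inflammatory mRNAs, had 448 and 332 CPM against 288, 233 and 226 CPM (log2 fold change -0.64, SE 0.20, adjusted p = 0.1001 from limma). Rpl22, an RNA-binding protein needed in T cell development, had 435 and 370 CPM against 339, 275 and 249 CPM. The groups did not overlap for any of these. Rpl39, a small protein lining the exit tunnel, had 79.1 and 104 CPM against 61.7, 59.6 and 48.4 CPM (log2 fold change -0.68, SE 0.21, adjusted p = 0.0977 from limma). Without Sema3G replicate 1 the adjusted p was 0.0403 for Rpl13, 0.0256 for Rpl13a and 0.0420 for Rpl39. Rpl41, the smallest of the ribosomal proteins, overlapped, with 125 and 87.3 CPM against 108.4, 77.6 and 61.8 CPM.

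Rpl5 and Rpl11 bind 5S ribosomal RNA and, when free, the p53 ligase Mdm2. Rpl11 had 35.7 and 39.6 CPM with PBS and 32.8, 22.6 and 23.5 CPM with Sema3G (log2 fold change -0.52), without overlap. Rpl5 had 12.6 and 2.68 CPM with PBS and 5.56, 4.96 and 6.91 CPM with Sema3G, so that the PBS libraries lay on either side of all Sema3G libraries (log2 fold change -0.07, or 0.13 with TMM factors). Rpl38, which is needed for the translation of a set of Hox mRNAs, had 14.8 and 15.5 CPM against 10.01, 9.48 and 10.1 CPM (log2 fold change -0.57, SE 0.31, adjusted p = 0.290 from limma). Rpl17 had the lowest log2 fold change of the group, -1.04 (SE 0.37, adjusted p = 0.138 from limma), on 19 and 23 UMIs with PBS and 12, 10 and 9 UMIs with Sema3G. Rpl10, which joins the large subunit late in its maturation, had 10 and 3 UMIs with PBS and 5, 2 and 5 UMIs with Sema3G, with all of its windows shared. Rpl35 had the highest log2 fold change, 1.44 (SE 0.62, adjusted p = 0.201 from limma), which rests on PBS replicate 2: its UMIs were 25 and 1 with PBS and 21, 38 and 18 with Sema3G. It was -0.19 without PBS replicate 2, and 3.07 when PBS replicate 1 was left out and the library with 1 UMI stood alone for PBS. The 5 tested genes of lowest level, Rpl36, Rpl27, Rps7, Rpl23a and Rps12, had 10 to 16 UMIs over all libraries together, and adjusted p values from 0.483 to 0.977 in limma.

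Paralogs were listed both above and below their parent genes. Rps27l, a p53 target, had 84.6 and 39.1 CPM with PBS and 62.8, 61.4 and 50.2 CPM with Sema3G (log2 fold change 0.01), while its parent Rps27 had at most 3 UMIs in a library. Rpl7l1, a ribosome assembly factor, had 47.2 and 57.8 CPM against 49.5, 34.7 and 41.9 CPM, while Rpl7 had 13.7 and 8.03 CPM against 7.78, 9.03 and 6.45 CPM. Rpl22l1 lay far below Rpl22, with 17.6 and 14.99 CPM with PBS and 14.5, 7.67 and 4.61 CPM with Sema3G (log2 fold change -0.92, SE 0.39, adjusted p = 0.188 from limma), without overlap. Rps4x had 63.7 and 46.6 CPM against 54.5, 31.1 and 26.3 CPM, and Rps4l, annotated as a pseudogene in GENCODE M21, had 22 and 9 UMIs against 7, 7 and 13 UMIs. Rpl3 had 94.5 and 98.5 CPM against 84.5, 64.1 and 58.1 CPM (log2 fold change -0.50), whereas Rpl3l, known from striated muscle, had 9 UMIs and Rpl39l, known from the testis, 2 UMIs in all. The remaining genes under 1 CPM, Rps23, Rpl28, Rpl36a, Rpl12, Rpl30 and Rpl24, had between 1 and 10 UMIs over the 5 libraries.

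Features of the promoters were looked up because many of these genes had the same order of groups. Of the 84 genes, 63 matched an entry of the RefSeq promoters (GRCm38.p6, 250 bases before to 50 after the annotated start), 10 of them with several starts. A run of 7 or more pyrimidines from 15 bases before to 25 after the start was found in 57.1% of them, against 26.7% of all 27025 genes. The windows from 10 bases before the start to 20 from it are shown for the 5 genes of lowest p in the limma fit with 1 listed start and such a run inside the window, followed by Rpl22l1, Rplp2 and Rpl35 as genes with other values. Capitals mark the longest pyrimidine run, and positions are chr17:27635225-27635254 (minus) for Rps10, chrX:37085203-37085232 (minus) for Rpl39, chr7:45128726-45128755 (minus) for Rpl13a, chr17:33955646-33955675 (minus) for Rps18, chr10:128626487-128626516 (minus) for Rps26, chr3:28805498-28805527 (plus) for Rpl22l1, chr7:141447641-141447670 (plus) for Rplp2 and chr2:39005112-39005141 (minus) for Rpl35.
Rps10: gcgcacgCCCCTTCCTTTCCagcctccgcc
Rpl39: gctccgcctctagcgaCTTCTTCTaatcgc
Rpl13a: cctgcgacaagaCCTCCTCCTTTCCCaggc
Rps18: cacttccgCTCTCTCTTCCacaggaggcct
Rps26: gcaagccgccggaTCCTCTTTCgagtcttg
Rpl22l1: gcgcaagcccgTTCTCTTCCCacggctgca
Rplp2: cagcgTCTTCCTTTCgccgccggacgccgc
Rpl35: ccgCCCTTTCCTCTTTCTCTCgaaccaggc
The motif CCGGAAG, a core bound by ETS factors such as GABP, was found on either strand in 41.3% of the matched genes, against 9.93% of all genes. AAGATGG, a core of YY1 sites, was found in 15.9% against 7.28%, and TATAAA in 11.1% against 15.7%. The first of these motifs can overlap the second by the letters AAG. A match is a description of the letters and no sign that a factor was bound. The 250 bases before the start are shown for Rps10 (chr17:27635245-27635494, minus strand) and Rps25 (chr9:44407464-44407713, plus strand), with the motif in capitals. Among the genes with 1 listed start, these had the lowest p of those with CCGGAAG in this stretch.
Rps10: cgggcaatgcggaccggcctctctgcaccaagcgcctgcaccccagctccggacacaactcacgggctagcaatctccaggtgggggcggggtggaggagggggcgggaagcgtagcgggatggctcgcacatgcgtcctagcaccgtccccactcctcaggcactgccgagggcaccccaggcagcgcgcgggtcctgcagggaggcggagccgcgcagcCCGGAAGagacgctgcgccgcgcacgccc
Rps25: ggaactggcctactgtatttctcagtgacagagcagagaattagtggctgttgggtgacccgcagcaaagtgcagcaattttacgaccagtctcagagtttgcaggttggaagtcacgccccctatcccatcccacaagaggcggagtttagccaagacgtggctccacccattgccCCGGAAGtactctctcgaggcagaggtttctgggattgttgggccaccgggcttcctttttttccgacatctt

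Genes that work with the ribosomal proteins were taken from lists. Of 5 rows for ribosomal proteins outside the symbol rule, 4 were tested and none passed the adjusted p. Gnb2l1, the older symbol of Rack1, whose product sits on the head of the small subunit, had 551 and 538 CPM with PBS and 451, 317 and 275 CPM with Sema3G (log2 fold change -0.68, SE 0.21, adjusted p = 0.103 from limma). The groups did not overlap. Fau, a ubiquitin-like fusion with a small subunit protein, had 12.6 and 21.9 CPM against 20.02, 21.2 and 20.3 CPM with overlap between the groups (log2 fold change 0.28).

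Of 22 translation factors and other TOP mRNAs, all tested, 1 was lower (against 0.218% of all genes), 1 was higher (against 1.59%) and the median log2 fold change was -0.39, against -0.51 for the ribosomal protein genes and -0.22 for all genes. Eef1a1, which brings aminoacyl-tRNA to the ribosome, fell from 855 and 865 CPM with PBS to 602, 435 and 437 CPM with Sema3G (log2 fold change -0.82, SE 0.20, adjusted p = 0.0466 from limma), but its adjusted p was 0.0741 with TMM factors and 0.0895 in edgeR. It lay between 0.0836 and 0.338 when a library other than Sema3G replicate 1 was left out. Pabpc1, the cytoplasmic poly(A)-binding protein, rose from 415 and 480 CPM to 780, 917 and 908 CPM (log2 fold change 0.95, SE 0.20, adjusted p = 0.0182 from limma and 0.00548 in edgeR). Without Sema3G replicate 2 or 3 its adjusted p was 0.195 or 0.156, and without PBS replicate 1 it was 0.0866. Eef2, the translocase, had 774 and 744 CPM with PBS and 643, 585 and 531 CPM with Sema3G (log2 fold change -0.38). Npm1, a nucleolar chaperone also counted among the TOP mRNAs, had 79.7 and 64.2 CPM against 68.4, 72.2 and 75.1 CPM (log2 fold change 0.01).

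Of 41 tested genes of ribosome biogenesis none passed the adjusted p in limma, with 3 lower (against 14.2% of all genes) and 4 higher (against 6.83%) at an unadjusted p under 0.05 and a median of -0.17. Over the 42 rows of the list the groups did not overlap for 6 genes with Sema3G the lower (against 26.5% of all genes tested) and 5 with Sema3G the higher (against 11.9%). Nop10, a protein of the box H/ACA particles that modify ribosomal RNA, had the lowest p of the list, with 110.4 and 108 CPM with PBS and 81.7, 59.6 and 61.3 CPM with Sema3G (log2 fold change -0.70, SE 0.20, adjusted p = 0.0835 from limma and 0.185 in edgeR). Ncl, the nucleolar protein nucleolin, had 154 and 126 CPM with PBS and 173, 188 and 207 CPM with Sema3G, the opposite order of groups from that of most ribosomal protein genes and without overlap (log2 fold change 0.44, SE 0.19, adjusted p = 0.191 from limma and 0.0442 in edgeR). Nop14, a processing factor of the small subunit, named like Nop10 after its values were seen, had 13.2 and 18.7 CPM against 26.7, 28.9 and 29.0 CPM, also without overlap (log2 fold change 0.80, SE 0.26, adjusted p = 0.113 from limma and 0.0359 in edgeR). Of 15 tested genes of mTOR and Larp1 control of TOP mRNAs, Eif4ebp2, a repressor of the cap-binding protein eIF4E, rose from 2 and 6 UMIs to 24, 45 and 65 UMIs (log2 fold change 2.83, SE 0.41, adjusted p = 0.000962 from limma) and no other passed, so that 1 of 15 was higher (against 1.59% of all genes). Mtor had 19.2 and 14.99 CPM with PBS and 18.9, 10.4 and 9.22 CPM with Sema3G, Larp1 had 143 and 87.8 CPM against 132, 125 and 136 CPM, and Rps6kb1, which encodes an S6 kinase, had 35.7 and 34.3 CPM against 45.0, 52.8 and 44.7 CPM. The groups overlapped for Mtor and Larp1 and did not for Rps6kb1 (log2 fold change 0.43, adjusted p = 0.261 from limma).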

How the data were processed

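RNA of 5 samples was made into 3′ end libraries with UMIs. Reads were mapped by the authors to mm10, UMIs counted with Strand NGS, and counts normalized with edgeR (3.12 in the submitters' processing notes). The deposited values are CPM. The deposited p-values and q-values, from the authors' comparison of the groups, were not used.

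CPM were whole multiples of 1 step per library (100% of values within 0.01 of a whole count), which gave the UMI counts and library totals. limma (3.58.1, R 4.3.3) with a trend on log2(CPM + 1) was fitted to 10088 genes (mean level 1 CPM or more), and p values were adjusted by the Benjamini-Hochberg method, with a limit of 0.05. A fold change on this scale understates that of low genes. Alternatives were edgeR (4.0.16) and DESeq2 (1.42.0) on recovered counts, other pseudocounts, filters and scalings, a replicate block and leaving out each library. The fits were tested on simulated data. Copies were searched with BLAST+ (2.17.0) and exact 75-base windows, and the stop codon window was chosen after seeing the data. Sema3G replicates 2 and 3 were the most alike (chi-square per degree of freedom 1.77, against 6.57 to 29.6 for other pairs), beyond sampling noise, and were kept as 2 samples.

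The members, lists and tests were chosen with earlier results of these data known. Named are members past the limit, the 5 largest changes each way without overlap, the 5 highest and 5 lowest tested, paralogs with their parents, those listed at 0, and a fixed list of genes of known function. Rps15a, Rps10, Rpl35, Rpl14, Rpl37, Rpl4, Rps21, Rps25, Rps26, Nop10 and Nop14 were named after their values were seen, as were the untested genes under 1 CPM, Rpl14-ps1 and Rpl37rt. Values of a few genes that the rule names are not reported here.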

Additional observations from a re-analysis of the deposited data

How the results depend on the processing

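The median log2 fold change of the ribosomal protein genes and its distance from the median of all genes kept their sign under all 15 alternatives. Rescaling the libraries shifts all genes nearly alike, so the distance could hardly change under the other scalings. The median went from -0.51 to -0.24 over the listed genes without Rn45s and to -0.62 without Sema3G replicate 1, both shifts smaller than the pooled SD between replicates of 0.287, and the distance ranged from -0.24 to -0.35 (SD 0.201). No gene of the group was called with pseudocounts of 0.1 or 5, without a filter, with the filter raised to 5 CPM, with either other scaling, in edgeR or DESeq2, or with Sema3G replicates 2 and 3 as their mean (chosen after seeing the data). Leaving out each library gave between 0 and 29 calls, the 29 without Sema3G replicate 1. Among all genes 182 were called, against 108 without a filter, 351 with TMM factors, 495 over the listed genes without Rn45s, 383 in edgeR, 19 with the mean of Sema3G replicates 2 and 3, and 26 to 856 when a library was left out, the lowest without Sema3G replicate 2 and the highest without Sema3G replicate 1. The log2 ratio of the summed CPM went from -0.56 to -0.28 over the listed genes without Rn45s. Counted over all 84 genes, 38 had every Sema3G library below both PBS libraries, 19 over the listed genes without Rn45s and 43 to 58 when a library was left out, the 58 without PBS replicate 2 (these counts were chosen after seeing the data). Among the genes tested this was 51.4% of the group against 26.5% of all genes, 26.4 against 10.5% over the listed genes without Rn45s, 77.8 against 50.2% without PBS replicate 2, 65.3 against 42.0% without Sema3G replicate 1 and 56.9 against 30.0% without Sema3G replicate 3.

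PBS and Sema3G share only the replicate numbers 1 and 2, and the deviations of same-numbered libraries correlated at 0.17 and 0.11. Pairs with unlike numbers among these gave -0.17 and -0.11, since the deviations of 2 PBS libraries are mirror images. The check therefore cannot decide on pairing, and the numbers were not taken as pairing. With the replicate block, Sema3G replicate 3, whose number no PBS library has, does not enter the contrast of the groups. In that fit 9 genes of the group were called (8 lower, 11.1% against 2.73% of all genes, and Rpl35 higher, 1.39% against 2.95%) and 573 among all genes, and Npm1 stood at -0.025.

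Of 54 named genes, 10 changed sign under some alternative, and the cause was not tested. Rps12 was 0.10 with TMM factors, 0.15 over the listed genes, 0.22 in DESeq2, 0.0048 with the mean of Sema3G replicates 2 and 3, and -0.22 to 0.18 with a library left out. Rplp2 was 0.057 with TMM factors, 0.13 over the listed genes, 0.068 in edgeR, 0.041 in DESeq2, and -0.45 to 0.13 with a library left out. Rpl5 was 0.13 with TMM factors, 0.21 over the listed genes, and -1.01 to 0.88 with a library left out. With a library left out, Rpl23a was -0.59 to 0.0082, Rps27l -0.54 to 0.55, Rpl10 -1.18 to 0.14, Rpl35 -0.19 to 3.07, Fau -0.094 to 0.66, Npm1 -0.15 to 0.16 (-0.011 with the mean of Sema3G replicates 2 and 3), and Larp1 -0.13 to 0.57. Beyond these, 36 values passed the limit that had not before, among them those without Sema3G replicate 1, and 14, of Eef1a1 and Pabpc1, no longer did.

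The depth limits the genes of few UMIs, since 3 UMIs are 1.35 to 1.67 CPM, and 12 genes had a mean under 1 CPM. The level of genes with much shared sequence is uncertain.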
